A study of Mus musculus with 9 samples.

Results

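The alpha crystallins of the mouse are encoded by 2 genes, *Cryaa* (ENSMUSG00000024041, alphaA-crystallin) and *Cryab* (ENSMUSG00000032060, alphaB-crystallin). They were taken by their symbols, 2 of the 47729 genes listed for RNA-Seq of whole newborn (P0) lenses. All mice were on the *FVB/N* background and thus homozygous for the rd1 retinal degeneration mutation, and each group gave 3 pools. The groups were non-transgenic *FVB/N* mice, hemizygous *P0-3.9GFPCre* mice and hemizygous *Le-Cre* mice. Each pool combined 6 lenses of 3 newborns, so no value belongs to a single animal. Both transgenes carry a fragment of the *Pax6* P0 promoter, which drives CRE and GFP in the lens epithelium and also outside the lens. In newborn lenses of both lines the paper measured CRE transcripts in separated cell fractions, with more in the epithelial than in the fiber fraction. The comparisons ask whether carrying such a transgene, without any floxed target, changed lens transcripts.

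Alpha crystallins are small heat shock proteins and form large mixed oligomers of alphaA and alphaB subunits in the lens. As chaperones that need no ATP they bind partly unfolded proteins, including beta and gamma crystallins, and so help to keep the fiber cell cytoplasm transparent. *Cryaa* is largely restricted to the lens, whereas *Cryab* is also abundant in heart and skeletal muscle. Mutations in either gene cause cataract.

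*Cryaa* lies at chr17:31677807-31681733 on the forward strand of GRCm38 in the GENCODE M21 annotation, and *Cryab* at chr9:50751325-50756636, also forward. The 4-exon transcript *Cryaa-201* contains an exon of 69 bases, all coding, that rodents splice in or leave out to give the longer alphaA-insert or the ordinary alphaA polypeptide. This exon 2 (chr17:31678449-31678517) is shown because it is the only coding difference between those forms. The annotation lists 6 transcripts of each gene, and *Cryab-201*, the transcript the files name, has 3 exons there.

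Cryaa exon 2: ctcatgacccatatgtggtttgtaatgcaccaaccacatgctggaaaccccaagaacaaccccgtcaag

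The files name 1 transcript for each gene, so the share of *Cryaa* RNA with this exon cannot be read from them, and every value below is for the gene as a whole. The promoter of *Cryaa* and that of *Hspb1*, another small heat shock gene to which the results return, are shown as the 250 bases before the RefSeq start on GRCm38.p6 (chr17:31677681-31677930 and chr5:135887669-135887918, both forward). Capitals in the *Cryaa* promoter mark TGCTGA, the core of the sequence that MAF proteins bind, and capitals in the *Hspb1* promoter mark GAANNTTC, facing units of the heat shock element.

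Cryaa promoter: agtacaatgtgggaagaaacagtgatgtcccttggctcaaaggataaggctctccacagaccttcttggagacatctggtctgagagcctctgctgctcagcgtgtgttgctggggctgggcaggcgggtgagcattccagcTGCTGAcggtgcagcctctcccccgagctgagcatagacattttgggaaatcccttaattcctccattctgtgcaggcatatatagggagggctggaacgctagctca

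Hspb1 promoter: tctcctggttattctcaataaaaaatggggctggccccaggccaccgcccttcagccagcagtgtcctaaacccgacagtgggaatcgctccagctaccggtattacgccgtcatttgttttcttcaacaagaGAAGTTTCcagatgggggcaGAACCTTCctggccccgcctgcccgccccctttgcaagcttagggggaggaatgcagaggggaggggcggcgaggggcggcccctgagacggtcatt

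Both strands were searched. TGCTGA occurred once before *Cryaa*, from position -108, and in 16.1% of 32851 mouse promoters of that length. GAANNTTC occurred 2 times before *Hspb1*, 0 times before *Cryaa* and in 6.69% of promoters. The other arrangement of the heat shock unit, TTCNNGAA, had 0 matches in both sequences and was present in 7.17% of promoters. These matches describe letters in a window and not bound sites. The promoter set had no entry for *Cryab*, so its promoter was not searched.

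*Cryaa* had the highest TPM of all genes in 9 of 9 pools. TPM (transcript abundance corrected for length and scaled to a fixed total) is the scale used here to compare genes. In *FVB/N* lenses *Cryaa* reached 141375, 138695 and 133556 TPM in replicates 1, 2 and 3. In *P0-3.9GFPCre* lenses it reached 127113, 151085 and 139675 TPM, and in *Le-Cre* lenses 132634, 146935 and 123596 TPM. The 3 lines overlapped, the highest pool being *P0-3.9GFPCre* replicate 2 and the lowest *Le-Cre* replicate 3, and the highest exceeded the lowest 1.22-fold. Mean TPM was 139291 ± 11991 (SD, n = 3) in *P0-3.9GFPCre*, 137875 ± 3973 in *FVB/N* and 134389 ± 11768 in *Le-Cre*, and each neighboring pair in that order differed by less than its spread.

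*Cryab* was far less abundant. Its levels were 6939, 6125 and 5643 TPM in the *FVB/N* pools, 5355, 6750 and 6746 TPM in the *P0-3.9GFPCre* pools and 6620, 6774 and 7017 TPM in the *Le-Cre* pools. *Le-Cre* replicate 3 was highest and *P0-3.9GFPCre* replicate 1 lowest, and the lines overlapped again. The mean TPM was 6804 ± 201 (SD, n = 3) in *Le-Cre*, 6284 ± 804 in *P0-3.9GFPCre* and 6236 ± 655 in *FVB/N*. Neighbors in that order differed by less than the larger SD of the pair.

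**Figure D1:**
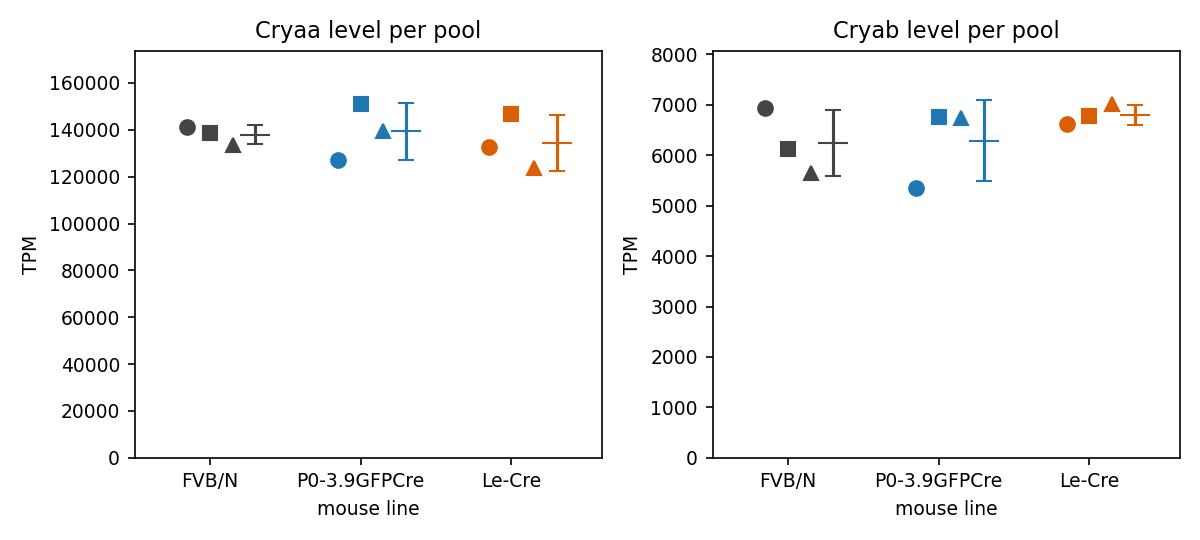
Levels of *Cryaa* (left) and *Cryab* (right) in TPM (vertical axes, from 0) for each pool of the 3 lines (horizontal axes). Circles, squares and triangles are replicates 1, 2 and 3, and the line with bars beside them is the mean ± SD (n = 3). The lines overlap for both genes, with *Cryaa* between 123596 and 151085 TPM and *Cryab* between 5355 and 7017 TPM.

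*Cryaa* alone took 13.3% to 15.8% of all expected counts of a pool (median 14.6%), and *Cryab* took 0.562% to 0.759%. These shares rested on 3024608 to 4025480 counts for *Cryaa* and 130848 to 198581 for *Cryab*. Counting error was therefore at most 0.0575% of the value for *Cryaa* and 0.276% for *Cryab*, against coefficients of variation between pools of a line, on the CPM scale, of 1.94% to 10.6% for *Cryaa* and 7.05% to 14.98% for *Cryab*. Depth was not the limit for either gene. CPM are counts scaled to a common library size with TMM factors and are not corrected for length.

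Among the 16 crystallin genes, *Cryaa* ranked first by TPM in every pool. Next was *Cryga*, a gamma crystallin and structural protein of the fiber cell, at 87768 to 119290 TPM, and its highest pool lay below the lowest *Cryaa* pool. *Cryab* ranked 13 or 14 of 16. The beta crystallin gene *Cryba2* stood above it without overlap, at 10532 to 11625 TPM. The gene next below, *Crygs*, a gamma crystallin whose expression extends into the postnatal lens, ranged from 4806 to 7592 TPM and overlapped *Cryab*. Gamma crystallin genes other than *Crygs* and *Crygn* are close copies of each other, so RSEM's division of shared reads makes their individual levels less certain. The files give this *Cryaa* transcript 1186 bases and the *Cryab* transcript 1185, against 1266 and 946 in M21, so the following check of shared sequence covers the M21 models and not exactly what was quantified. For *Cryab* 0 of 896 read-length (51-base) stretches of its M21 transcript recurred in another gene. For *Cryaa* 8.06% of 1216 did, all in *AC090881.2*, an antisense gene across the *Cryaa* locus that the deposited tables do not list. Whether counting used strand is not given in the sources used here, so antisense reads cannot be told apart from *Cryaa* reads.

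The ratio of *Cryaa* to *Cryab* TPM was 20.4, 22.6 and 23.7 in *FVB/N*, 23.7, 22.4 and 20.7 in *P0-3.9GFPCre* and 20.04, 21.7 and 17.6 in *Le-Cre*. *Le-Cre* replicate 3, with the lowest *Cryaa* and the highest *Cryab* level, gave the smallest ratio, and the 3 lines overlapped. The mean ratio was 22.2 ± 1.69 (SD, n = 3), 22.3 ± 1.52 and 19.8 ± 2.05, respectively. The alpha crystallins together supplied 22.0% to 27.1% of the crystallin TPM, with means of 24.6% ± 1.45 in *FVB/N*, 25.2% ± 1.81 in *P0-3.9GFPCre* and 23.998% ± 2.44 in *Le-Cre*. Of all TPM they made up 13.1% to 15.8%. These are ratios of levels and carry no test. TPM rests on the deposited transcript lengths, 1186 bases for *Cryaa* and 1185 for *Cryab*, where M21 gives 1266 and 946. The ratio and the level and rank of *Cryab* depend on which length is used, and M21 lengths were not tried.

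**Figure D2:**
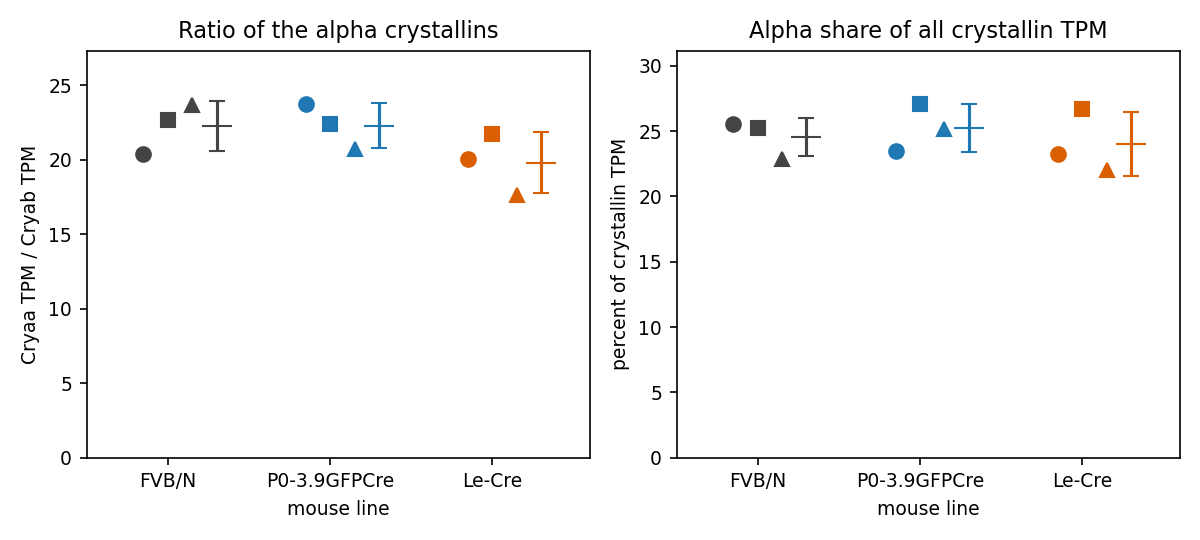
Ratio of *Cryaa* to *Cryab* TPM (left) and the alpha crystallins' percent of the TPM of all 16 crystallin genes (right) for each pool, with mean ± SD (n = 3) beside the pools. Circles, squares and triangles are replicates 1, 2 and 3. The ratio spans 17.6 to 23.7 and the share 22.0% to 27.1%, and the lines overlap in both.

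Neither gene passed the cutoff, a 1.5-fold or larger change at an adjusted p of 0.05 or less, in any of the 3 comparisons (edgeR's quasi-likelihood test, Benjamini-Hochberg adjustment over the 15557 genes tested). In *Le-Cre* against *FVB/N* 0 of 2 were called, beside 0.0643% of all genes tested, and in *P0-3.9GFPCre* against *FVB/N* and *Le-Cre* against *P0-3.9GFPCre* 0 of 2 beside 0% of all genes. At an unadjusted p under 0.05 the count was also 0 of 2 in each, where 7.94%, 6.81% and 7.88% of all genes passed in that order, and DESeq2 and limma called 0 of 2 as well. In 0 of 2 genes were the pools of the lines separate, against 13.5%, 12% and 14.1% of all genes. With 3 pools against 3, the smallest two-sided p that an exact permutation test can give is 0.1. *FVB/N* pools serve as the reference in both comparisons with transgenic lines.

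In *Le-Cre* lenses *Cryaa* averaged 141838 ± 5118 CPM (SD, n = 3) against 149582 ± 2897 CPM in *FVB/N*. The log2 fold change was -0.08 (SE 0.08, edgeR adjusted p = 0.878, exact permutation p = 0.2). The 95% interval, as a percent change, ran from -16.5% to 7.68%. For *P0-3.9GFPCre*, at 144225 ± 15222 CPM, the log2 fold change of *Cryaa* was -0.05 (SE 0.08, edgeR adjusted p = 0.929), with an interval from -15.1% to 9.49%. Between the transgenic lines it was -0.02 (SE 0.08, edgeR adjusted p = 0.975), with an interval from -13.4% to 11.7%. All 3 intervals for *Cryaa* include 0 and end short of a 1.5-fold change.

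*Cryab* averaged 7199 ± 507 CPM (SD, n = 3) in *Le-Cre* and 6754 ± 620 CPM in *FVB/N*. The log2 fold change was 0.09 (SE 0.11, edgeR adjusted p = 0.896, exact permutation p = 0.4), with a 95% interval from -9.91% to 26.1%. *P0-3.9GFPCre*, at 6506 ± 975 CPM, differed from *FVB/N* by -0.05 (SE 0.11, edgeR adjusted p = 0.950), with an interval from -18.6% to 13.98%. *Le-Cre* against *P0-3.9GFPCre* gave the largest estimate of the 6, 0.15 (SE 0.11, edgeR adjusted p = 0.791), with an interval from -6.49% to 30.9%. Without *P0-3.9GFPCre* replicate 1 this estimate was 0.03, and that of *Cryaa* between the transgenic lines was -0.10. The *Cryab* intervals also lie inside the 1.5-fold cutoff in both directions.

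*P0-3.9GFPCre* replicate 1 set the sign of 2 of these estimates. It held the lowest CPM of its line for both genes, at 127846 for *Cryaa* and 5381 for *Cryab*. Without it, the log2 fold change of *P0-3.9GFPCre* against *FVB/N* was 0.03 for *Cryaa* and 0.07 for *Cryab*, and neither was called. Counts of 4 Y-linked genes (*Uty*, *Kdm5d*, *Eif2s3y*, *Ddx3y*), which follow how many pups in a pool were male, also moved with the lines. They summed to 126 to 194 CPM in *FVB/N*, 1.66 to 135 CPM in *P0-3.9GFPCre* and 0.633 to 71.9 CPM in *Le-Cre*. With this sum as a covariate the *Cryaa* estimate for *Le-Cre* against *FVB/N* was 0.02 (SE 0.13) in place of -0.08 (SE 0.08). The sum did not overlap between *FVB/N* and *Le-Cre* pools, so the sex of the pups and the line cannot be told apart in that comparison.

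**Figure D3:**
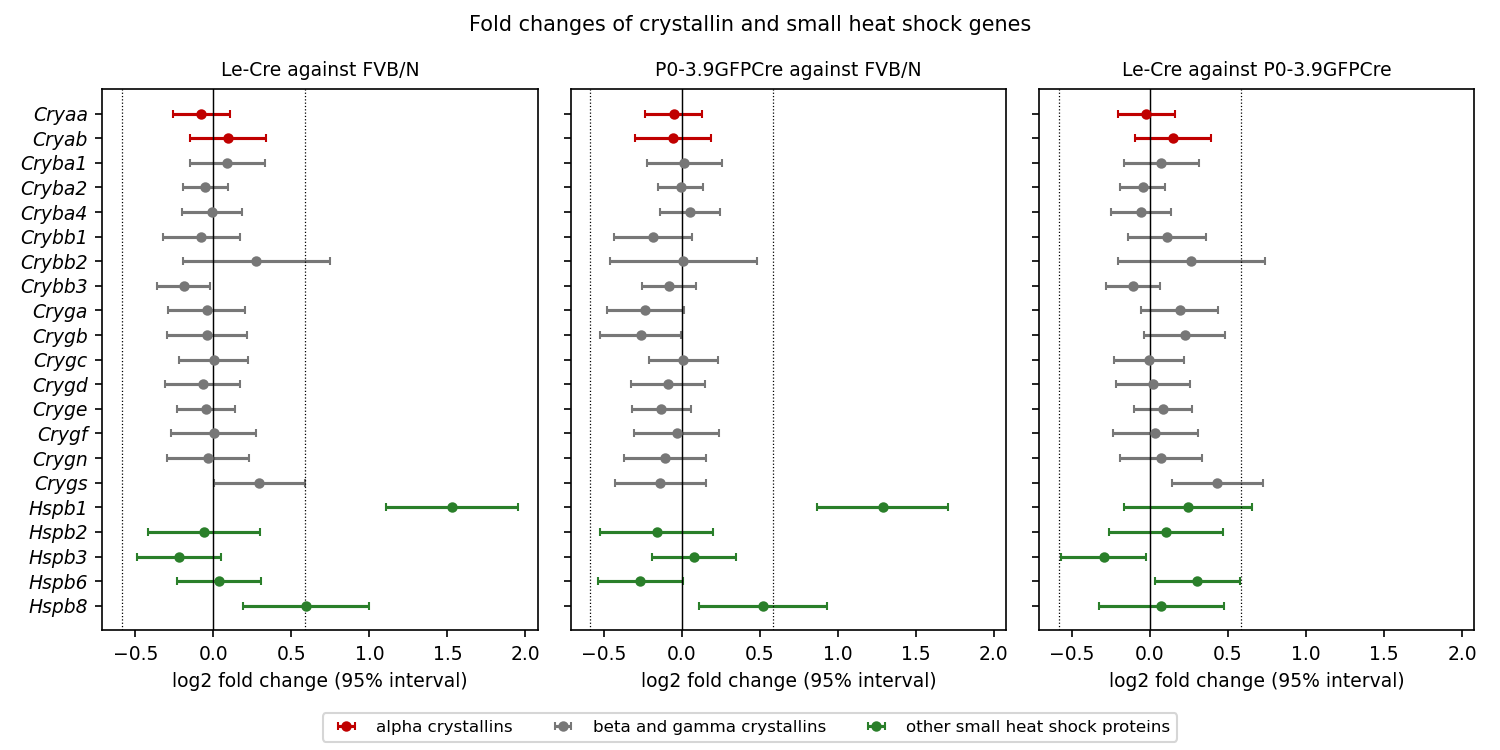
Log2 fold changes (points, horizontal axes) with 95% intervals from the edgeR fit for the 2 alpha crystallin genes, 14 beta and gamma crystallin genes and 5 other small heat shock genes (rows) in the 3 comparisons (panels). Dotted lines mark a 1.5-fold change. *Cryaa* and *Cryab* lie between -0.08 and 0.15 with intervals that include 0, and *Hspb1* stands apart at 1.53 and 1.29 in the comparisons with *FVB/N*.

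The pool-to-pool variation of *Cryaa* was small among expressed genes. Its SD of log2 CPM within lines was 0.10, higher than in only 19.6% of the 15104 genes with a count in every pool, and close to the median of the 100 most abundant genes, also 0.10. For *Cryab* the SD was 0.16, larger than that of all but 24 of those 100 genes and near the median of all 15104 genes, 0.18. *Crygs* and the beta crystallin gene *Crybb2*, at 0.20 and 0.35, varied more than either alpha gene.

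The course of each gene over the 9 pools was compared with 7635 genes of at least 10 mean CPM by the root mean square (RMS) difference of log2 CPM, each gene centered on its own mean. The genes most like *Cryaa* were *1700025G04Rik*, *Fnbp4*, *Fam53c*, *Ip6k1* and *Kmt2e*, at RMS differences of 0.040 to 0.044, where the median gene was at 0.137. Most like *Cryab* was *Mfsd2a*, a lysophospholipid transporter, at 0.053, followed by *A930005H10Rik*, *Med30*, *D10Wsu102e* and *Magi2* at 0.078 to 0.081, with the median gene at 0.184. *Mfsd2a* had its lowest TPM in the same pool as *Cryab*, 6.95 in *P0-3.9GFPCre* replicate 1 against 7.97 to 9.20 in the other 8 pools. It was picked by its distance from *Cryab* over these same pools, so the shared low pool is part of that choice and adds nothing to it. No crystallin was among either 5. *Cryab* was 3278th in likeness to *Cryaa* (RMS 0.129), and *Cryaa* was 388th in likeness to *Cryab*. This distance takes in the size of changes as well as their course. *Cryaa* had an RMS of 0.085 about its own mean, and *Cryab* 0.147. A gene with no change at all would thus lie at 0.085 from *Cryaa*, nearer than any other crystallin. A far rank therefore does not mean an unlike course. Among crystallins *Cryba2* came closest to *Cryaa* (0.088) and *Cryba1* to *Cryab* (0.097), and *Crybb2* was farthest from *Cryaa* (0.295). All these pools share depth and scaling, so the distances are a description.

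Within 100 kb of the alpha crystallin genes, M21 places 14 other genes, and 11 are in the tables. All 11 were tested and 0 were called in any comparison. *Hspb2*, a small heat shock gene at chr9:50751078-50752354 on the reverse strand, starts beside *Cryab* and overlaps its longest M21 transcript model. It stood at 10.7 to 16.0 TPM over all pools, in a locus where *Cryab* reached 5355 TPM or more. Its log2 fold changes were -0.06 in *Le-Cre* and -0.16 in *P0-3.9GFPCre* against *FVB/N* (edgeR adjusted p = 0.961 and 0.883). Next to *Cryaa*, the splicing factor gene *U2af1* gave 0.14 and 0.06 (edgeR adjusted p = 0.714 and 0.910).

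In the rest of the small heat shock family, *Hspb1* (HSP25, which protects cells and actin filaments under stress) was the gene that passed the cutoff. Its level was 44.6, 46.5 and 45.8 TPM in *FVB/N*, 134, 79.2 and 138 TPM in *P0-3.9GFPCre* and 150, 112 and 142 TPM in *Le-Cre*. Every transgenic pool exceeded every *FVB/N* pool, where 12% (*P0-3.9GFPCre*) and 13.5% (*Le-Cre*) of all genes had separate pools. The log2 fold change in *Le-Cre* was 1.53 (SE 0.19, edgeR adjusted p = 0.0331), which passed the cutoff, and in *P0-3.9GFPCre* it was 1.29 (SE 0.19, edgeR adjusted p = 0.239), which did not. The difference between the transgenic lines was 0.24 (SE 0.19, edgeR adjusted p = 0.796).

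The *Hspb1* call in *Le-Cre* rested on all *FVB/N* and *Le-Cre* pools, since leaving out any of those 6 raised the adjusted p to between 0.0522 and 0.174 while the log2 fold change stayed between 1.44 and 1.68. Adding the summed Y-linked CPM as a covariate made the log2 fold change 0.83 (edgeR adjusted p = 0.853), in a comparison where sex and line cannot be told apart. For *Le-Cre* the adjusted p over 20 alternatives spanned 1.18e-12 to 0.853, and for *P0-3.9GFPCre* 5.36e-10 to 0.968. DESeq2 called *Hspb1* in both lines. The paper, which used DESeq2 and the same cutoff, had already reported *Hspb1* as overexpressed in both lines.

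Set against *Cryab*, *Hspb1* was a minor transcript in all lines. *Hspb1* TPM equaled 0.642% to 0.811% of *Cryab* TPM in *FVB/N* pools, 1.17% to 2.50% in *P0-3.9GFPCre* and 1.65% to 2.26% in *Le-Cre*, so *Cryab* stayed at least 40.03 times as abundant in every pool. *Hspb8*, whose protein works with the co-chaperone BAG3 in autophagy, was at 2.31 to 3.67 TPM in *FVB/N*, 4.04 to 5.20 in *P0-3.9GFPCre* and 4.27 to 4.58 in *Le-Cre*. Its log2 fold changes of 0.52 and 0.59 did not pass (edgeR adjusted p = 0.651 and 0.433). *Hspb3* stood at 14.2 to 22.8 TPM and *Hspb6* at 6.81 to 10.1 TPM, without a call. Against *FVB/N* the log2 fold changes of *Hspb3* were -0.22 in *Le-Cre* and 0.08 in *P0-3.9GFPCre*. Those of *Hspb6* were 0.04 and -0.27. For both negative estimates all transgenic pools lay below the *FVB/N* pools in CPM, where 13.5% and 12% of all genes had separate pools. *Hspb7*, *Hspb9* and *Odf1* fell under the filter on low counts, at no more than 0.15 TPM. Of 8 other family members 5 were thus tested. In the 3 comparisons 1, 0 and 0 of them were called, beside 0.0643%, 0% and 0% of all genes, and 3, 3 and 4 estimates were positive. Their median log2 fold changes were 0.04, 0.08 and 0.10, where all genes had medians within 0.01 of 0.

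**Figure D4:**
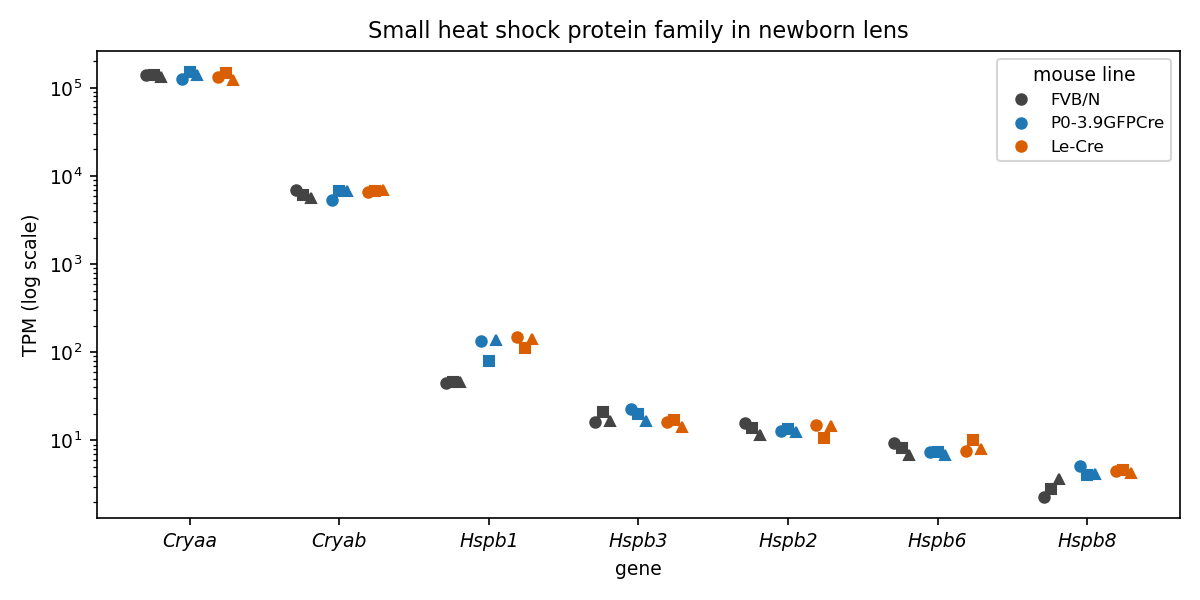
TPM on a log axis (vertical) of the 7 small heat shock family genes that passed the filter (horizontal), with 1 point per pool, colored by line. Circles, squares and triangles are replicates 1, 2 and 3. *Cryaa* and *Cryab* lie in separate bands, at 123596 to 151085 and 5355 to 7017 TPM, and *Hspb1* is between 44.6 and 46.5 TPM in *FVB/N* and between 79.2 and 150 TPM in the transgenic pools.

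The beta and gamma crystallins are the main lens clients of alpha crystallin. They gave 0 calls among 14 tested genes in each comparison, beside 0.0643%, 0% and 0% of all genes. Their median log2 fold changes were -0.04, -0.09 and 0.07. The estimates farthest from 0 were *Crygs* at 0.29 in *Le-Cre* and *Crygb* at -0.26 in *P0-3.9GFPCre* against *FVB/N*, and *Crygs* at 0.43 between the transgenic lines (edgeR adjusted p = 0.628, 0.722 and 0.463). For *Cryaa* and *Cryab* the corresponding estimates were all within 0.15 of 0.

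Of the 15 transcription factors and coactivators known to act on alpha crystallin genes, all were tested and 0 were called in each comparison. *Pax6*, which activates *Cryaa* and whose promoter fragment drives both transgenes, was at 78.4 to 97.6 TPM over all pools. *Maf*, the factor for the TGCTGA core shown above, was at 272 to 337 TPM in *FVB/N*, 250 to 287 in *P0-3.9GFPCre* and 262 to 287 in *Le-Cre*. Its log2 fold changes were -0.24 and -0.16 against *FVB/N* (edgeR adjusted p = 0.662 and 0.729). *Hsf4*, the heat shock factor of the differentiating lens, was at 153 to 187 TPM with overlapping lines. In *Le-Cre* against *FVB/N* 14 of the 15 estimates were negative with a median of -0.09, and in *P0-3.9GFPCre* 10 of 15 with a median of -0.04. Between the transgenic lines 10 of 15 were negative, with a median of -0.03. Medians of all genes tested were -0.0040, 2.39e-05 and -0.0018, and their share of negative estimates was not counted. At an unadjusted edgeR p under 0.05 the list held 0, 1 and 1 genes, where 7.94%, 6.81% and 7.88% of all genes passed.

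ATP-dependent chaperones refold proteins that small heat shock proteins hold, and 8 of 9 listed genes were tested. They gave 0 calls in each comparison, beside 0.0643%, 0% and 0% of all genes. *Dnajb1*, an HSP40 co-chaperone, was at 131, 119 and 116 TPM in *FVB/N*, 168, 139 and 187 TPM in *P0-3.9GFPCre* and 167, 182 and 178 TPM in *Le-Cre*. All transgenic pools lay above the *FVB/N* pools, where 12% (*P0-3.9GFPCre*) and 13.5% (*Le-Cre*) of all genes had separate pools. The log2 fold changes of 0.36 and 0.49 did not pass the adjusted cutoff (edgeR adjusted p = 0.590 and 0.175). The median log2 fold changes of the list were 0.08, 0.02 and 0.08.

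The filament and membrane partners of alpha crystallin in fiber cells also gave 0 calls among 7 genes in each comparison. The share of all genes called was 0.0643%, 0% and 0%. *Bfsp1*, the beaded filament protein filensin, was at 2202 to 2471 TPM, and *Mip*, the fiber cell water channel aquaporin-0, at 4089 to 4658 TPM. The gap junction gene *Gja3* gave the largest estimates against *FVB/N*, -0.09 in *Le-Cre* and -0.14 in *P0-3.9GFPCre* (edgeR adjusted p = 0.744 and 0.662).

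Marker lists show what the pools held. Lens epithelium markers (*Cdh1*, *Pdgfra*, *Foxe3*, *Cdk1* and *Mki67*) summed to 125 to 146 TPM in *FVB/N*, 126 to 146 in *P0-3.9GFPCre* and 122 to 133 in *Le-Cre*, with overlapping lines. In *Le-Cre* against *FVB/N* 0 of 5 passed the cutoff, beside 0.0643% of all genes. *Pdgfra* was at -0.40 and *Cdk1* at 0.38 (edgeR adjusted p = 0.169 or above for the list). In *P0-3.9GFPCre* against *FVB/N* 0 of 5 passed as well, beside 0% of all genes. *Pdgfra* was at -0.28, *Cdk1* at 0.34 and *Mki67* at 0.25 (edgeR adjusted p = 0.590 or above). *Pdgfra* was lower and *Cdk1* higher in every transgenic pool than in every *FVB/N* pool on the CPM scale. Separate pools were found in 13.5% (*Le-Cre*) and 12% (*P0-3.9GFPCre*) of all genes. The sum of these markers combines estimates of opposite sign. In whole-lens RNA, fewer cells of a type and less RNA per cell cannot be told apart. The defining markers of striated muscle, the other main source of *Cryab* RNA, were at or near 0, the 6 genes summing to 0.04 to 0.53 TPM with *Myl1* listed at 0 in every pool. Retina markers (5 genes) summed to 1.61 to 3.97 TPM and vessel and macrophage markers (4 genes) to 13.4 to 33.4 TPM. Blood markers (5 genes) summed to 85.2 to 263 TPM. The lines overlapped for each sum, with 0 calls beside at most 0.0643% of all genes tested. What these tissues added to the alpha crystallin values was not tested.

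Total expected counts were 20670968 to 28098059 per pool, and the 16 crystallin genes took 39.1% to 43.0% of them. Because so large a part of each library is crystallin, scaling was repeated without those genes. The *Cryaa* and *Cryab* estimates kept their signs under that scaling, under RLE size factors and under library totals alone. With library totals alone the estimates for *P0-3.9GFPCre* against *FVB/N* were closer to 0, at -0.0030 for *Cryaa* and -0.0059 for *Cryab*, and the *Cryaa* estimate for *Le-Cre* against *FVB/N* was -0.04. Across 20 alternatives neither gene was called in any comparison, and the smallest adjusted p was 0.694.

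**Figure D5:**
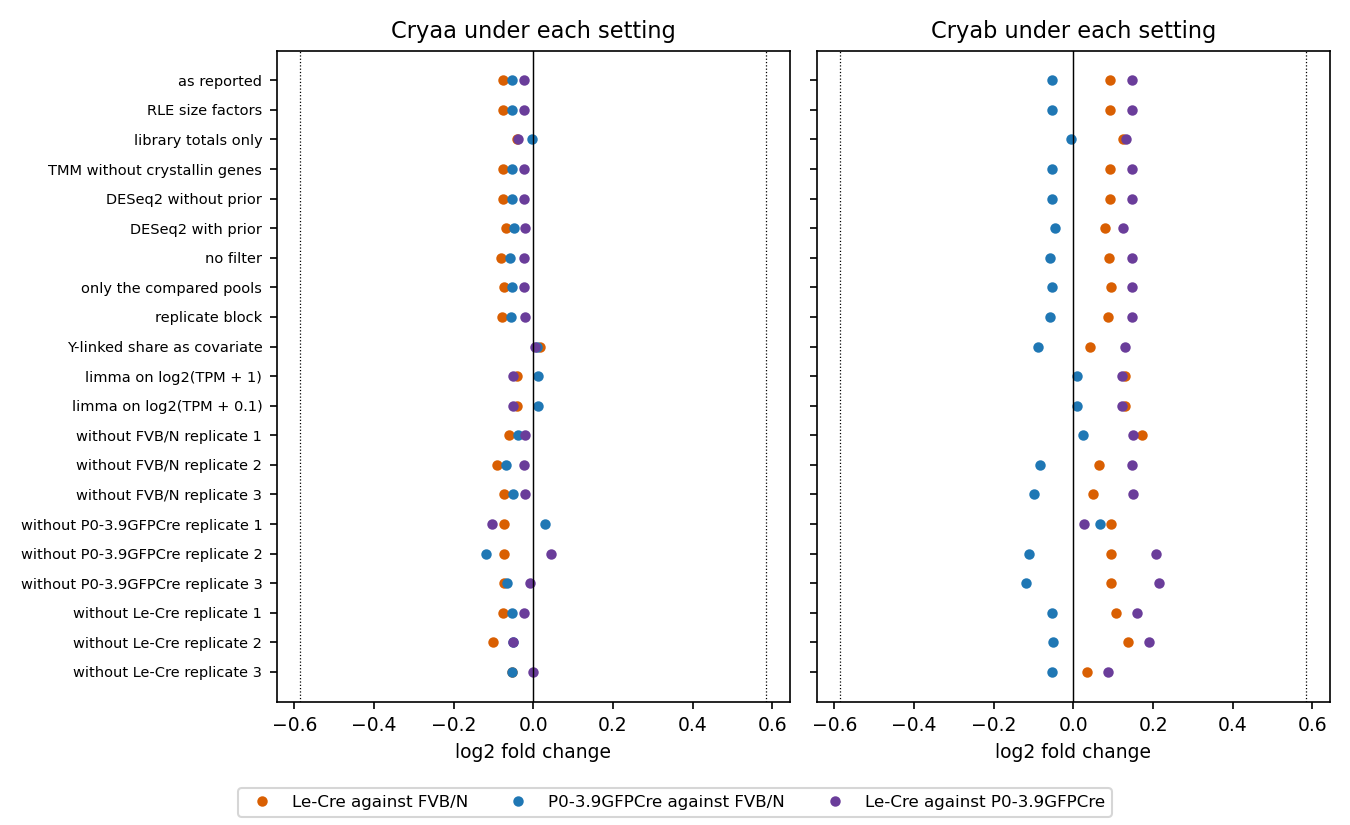
Log2 fold changes (horizontal axes) of *Cryaa* (left) and *Cryab* (right) as reported and under each of 20 alternatives (rows), colored by comparison. Dotted lines mark a 1.5-fold change. All estimates lie between -0.12 and 0.21, and signs change for *Cryaa* in all comparisons and for *Cryab* in *P0-3.9GFPCre* against *FVB/N*.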

How the data were processed

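Polyadenylated RNA of 9 pools of whole P0 lenses, 3 per line, was sequenced as single-end reads. The authors trimmed reads with Trimmomatic 0.36, used GSNAP for mapping to GRCm38 and RSEM 1.3.0 for quantification, and their own tests used DESeq2 1.10.1. The annotation version is not given in the sources used here. The deposited expected counts divide reads shared between genes, and the deposited TPM correct for effective length. The deposited length columns were used to describe transcripts.

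Here expected counts were rounded, scaled by TMM and filtered with filterByExpr. The 15557 genes kept were fitted over all 9 pools with the quasi-likelihood test of edgeR 4.0.16 in R 4.3.3, with Benjamini-Hochberg adjustment and a cutoff of 1.5-fold and adjusted p of 0.05. Intervals are 95% intervals. The SE is the absolute log2 fold change over the square root of the F statistic. DESeq2 1.42.0 and limma 3.58.1 on log2(TPM + 1) or log2(TPM + 0.1) were alternatives. The test was checked on counts simulated for *Le-Cre* against *FVB/N*. At the cutoff it recovered 65.2% of 2-fold and 81.3% of 4-fold changes, and 6 of its 151 calls were unchanged genes. Pools were grouped by line and numbered from the sample titles, although for 1 *FVB/N* pool the short description carries another number. Counts of replicates of a line differed by more than sampling noise (chi-square per degree of freedom of 9.43 to 39.3), so by that measure no pair was a repeat deposit of 1 library. The labels call the pools biological replicates. Exact tests are two-sided.

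Both members and all lists were chosen with earlier results of these data known. Genes named are both members, list genes past the cutoff or otherwise up to 3 per list by change or level, genes within 100 kb, and the 5 most alike. *Mfsd2a* values by pool, *Crygs*, *Crybb2* and the crystallins nearest in likeness were singled out after their values were seen. Results for 1 gene of the marker lists are not reported here.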

Additional observations from a re-analysis of the deposited data

How the results depend on the processing

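No alternative called *Cryaa* or *Cryab*, and their signs were not stable where estimates were near 0. With summed Y-linked CPM as a covariate *Cryaa* reversed to 0.0161, 0.0107 and 0.00536 (log2, *Le-Cre* and *P0-3.9GFPCre* against *FVB/N*, and *Le-Cre* against *P0-3.9GFPCre*), and the count of related genes past the cutoff in *Le-Cre* fell from 1 to 0. With limma on log2(TPM + 1) and on log2(TPM + 0.1), *P0-3.9GFPCre* against *FVB/N* reversed to 0.0116 for *Cryaa* and to 0.00795 and 0.00795 for *Cryab*, and the related count in *Le-Cre* was 0. The related count in *P0-3.9GFPCre*, 0 as reported, was 1 with DESeq2 with or without a prior and without the filter. In each case the gene was *Hspb1*, and the cause was not tested.

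Leaving out 1 pool gave *Cryaa* estimates of -0.10 to -0.05 in *Le-Cre* against *FVB/N*, -0.12 to 0.03 in *P0-3.9GFPCre* against *FVB/N* and -0.10 to 0.05 in *Le-Cre* against *P0-3.9GFPCre*. *Cryab* gave 0.03 to 0.17, -0.12 to 0.07 and 0.03 to 0.21 in that order. *Cryab* in *P0-3.9GFPCre* against *FVB/N* reversed without *FVB/N* replicate 1 (0.0247) or *P0-3.9GFPCre* replicate 1 (0.0670), and *Cryaa* without the latter (0.0284). *Cryaa* between the transgenic lines reversed without *P0-3.9GFPCre* replicate 2 (0.0452) or *Le-Cre* replicate 3 (0.00053). The related counts ranged from 0 to 1 in *Le-Cre*, with 0 without any *FVB/N* or *Le-Cre* pool, and from 0 to 1 in *P0-3.9GFPCre*, with 1 without its replicate 2. The *Cryaa* to *Cryab* ratio ranged from 21.5 to 23.2 in *FVB/N*, 21.5 to 23.1 in *P0-3.9GFPCre* and 18.8 to 20.9 in *Le-Cre*.

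Same-numbered pools were not treated as pairs, since the labels name no shared litter or batch and not every same-number correlation of residuals exceeded 0.1 (mean 0.047, range -0.11 to 0.18, 9 pairs, against a mean of -0.024 for 18 pairs with different numbers). As a hint from the data the other way, 6 of 9 pools correlated best with their own number. With the replicate block *Cryaa* was at -0.08, -0.06 and -0.02 and *Cryab* at 0.09, -0.06 and 0.15, with no call, and calls over all genes were 2, 0 and 0 in place of 10, 0 and 0. Those calls were 7, 0 and 0 with library totals, 131, 93 and 123 without the filter, 54, 4 and 38 with DESeq2 without a prior, 10, 1 and 4 with a prior, 13, 0 and 31 with the compared pools alone, 1, 1 and 0 with the Y-linked covariate, and 1, 0 and 1 or 0, 0 and 0 with limma. Without any 1 of the *FVB/N* or *Le-Cre* pools the 10 calls in *Le-Cre* fell to 0 or 1, and without *FVB/N* replicate 2 the other comparisons gave 14 and 18 in place of 0 and 0. Without *P0-3.9GFPCre* replicate 2, *P0-3.9GFPCre* against *FVB/N* gave 3. Counting error was small beside the spread between pools for both alpha crystallins.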
